A study of Mus musculus with 5 samples.

Results

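The 10 genes described here encode the enzymes that hydroxylate and crosslink collagen: the lysyl oxidase family (Lox, Loxl1, Loxl2, Loxl3 and Loxl4), the lysyl hydroxylases (Plod1, Plod2 and Plod3) and 2 catalytic subunits of prolyl 4-hydroxylase (P4ha1 and P4ha2). They were taken by gene name from 55483 genes in the tables of transcript levels (TPM, which is per length and per library total) of 5 RNA-seq libraries of GL261, a mouse glioma cell line grown in culture. The cells of 2 libraries (replicates 2 and 3) had been given sodium propionate and those of 3 (replicates 1, 2 and 3) sodium chloride, each at 1 uM as the labels write it, and RNA was taken 24 h later. Both groups are the same tumour line with no other agent named, and propionate replicate 1 was not analysed here. Nothing in the labels says whether the replicates came from separate cultures, so p-values measure only the spread between these libraries, which may be technical.

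Collagen chains are modified while they are still in the endoplasmic reticulum. Prolyl 4-hydroxylase makes the 4-hydroxyproline that keeps the triple helix stable at body temperature, and lysyl hydroxylases make hydroxylysine, which carries sugars and forms the more stable kinds of crosslink; both enzymes need iron, 2-oxoglutarate and ascorbate. Lysyl oxidases are copper enzymes that act outside the cell and turn lysine and hydroxylysine side chains into the aldehydes from which crosslinks form. In solid tumours these enzymes are known for matrix stiffening, and several of them, Plod2 and P4ha1 included, are known targets of the hypoxia-inducible factor HIF-1.

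In propionate-treated cells Loxl2 and Plod2 were higher than in chloride-treated cells, and no enzyme of the group passed the test in the other direction. Lox and Loxl1 were listed at 0 in all 5 libraries, which left 8 of the 10 genes to test. Of these 8, 2 passed upwards and 0 downwards at an adjusted p under 0.05, beside 1.31% of the 13876 tested genes that were higher and 0.504% that were lower. At an unadjusted p under 0.05 there were 3, Loxl4 besides, all higher, beside 16.8% of all tested genes in either direction. The propionate and chloride libraries did not overlap for 5 of the 8: 4 were higher with propionate (Loxl2, Loxl4, Plod1 and Plod2) and 1 was lower (P4ha2), beside 14.8% of all tested genes without overlap upwards and 19.7% downwards. The median log2 change of the 8 was 0.18, and that of all tested genes was -0.026. Changes are from limma on log2(TPM + 1), with Benjamini-Hochberg adjustment over all 13876 genes, and the added 1 TPM makes the change of a low gene look smaller.

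**Figure D1:**
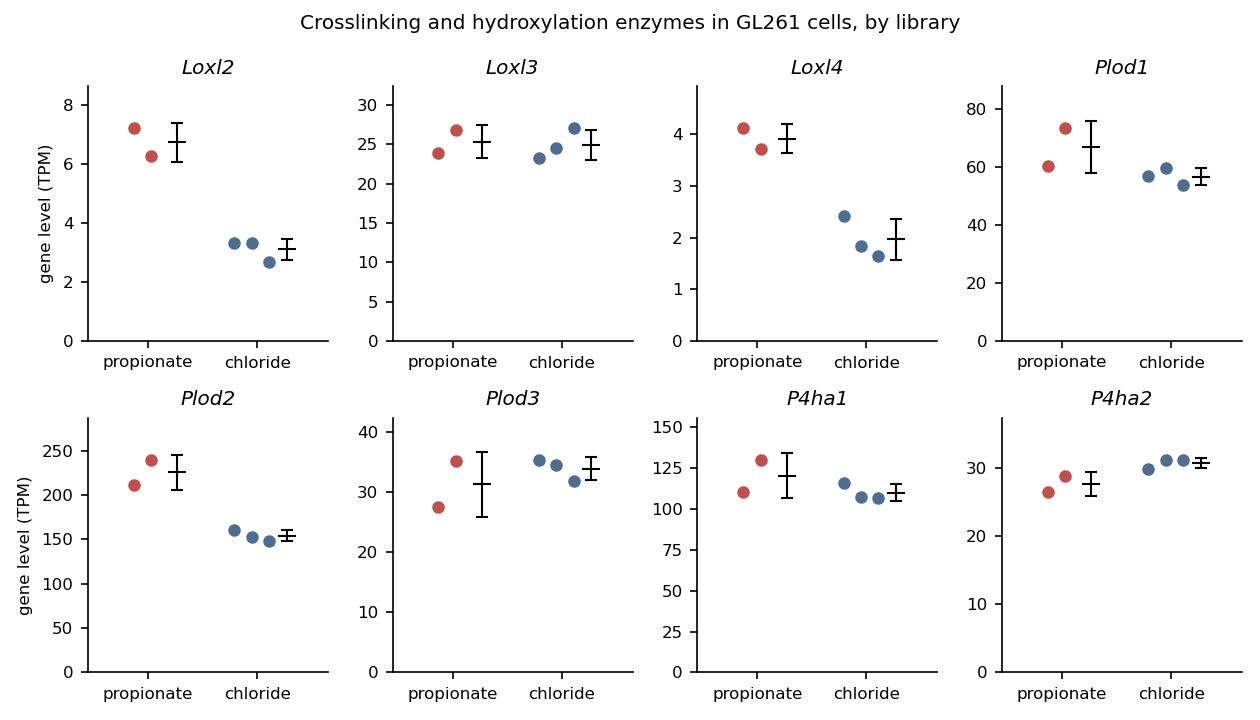
Gene level in TPM (vertical axes, each from 0) of the 8 detected enzymes in the propionate libraries (left, n = 2) and the chloride libraries (right, n = 3); points are libraries, and black marks with bars are the mean ± SD. The propionate points lie above every chloride point for Loxl2, Loxl4, Plod1 and Plod2 and below every chloride point for P4ha2.

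The libraries were of like size, from 7.19 to 7.63 Gb of transcript coverage, and 1 TPM stood for a mean coverage of 4.73 to 4.99 reads per base. Protein-coding genes held 45.2% and 50.3% of TPM in propionate replicates 2 and 3, and 49.1%, 47.7% and 46.7% in chloride replicates 1 to 3, so the propionate libraries held both the lowest and the highest share. When TPM was rescaled to protein-coding genes alone, 588 genes were higher and 407 lower, against 182 and 70 with the deposited TPM. Of 11 glial and glioma markers, 10 were above the minimum of 1 TPM, while all 6 endothelial markers were below it. Among immune markers Itgam was listed at 0 in every library and Ptprc was at most 0.0457 TPM. The 9 immune markers summed to 12.7 to 14.6 TPM with propionate and 8.76 to 10.2 TPM with chloride, nearly all of it from Cd68 and Cd14, and the 8 fibroblast and pericyte markers summed to 128 to 152 TPM and 155 to 167 TPM, mostly from Col3a1 and Acta2; the part of these sums in the results was not tested. In bulk RNA, fewer cells of a kind and less RNA per cell cannot be told apart.

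Loxl2 was the 1 lysyl oxidase that passed the test. Its protein carries scavenger receptor repeats before the oxidase domain and acts on fibrillar collagen and on collagen IV. Loxl2 (ENSMUSG00000034205, GRCm38 chromosome 14, 69609068 to 69695834, plus strand) was at 7.20 and 6.26 TPM in propionate replicates 2 and 3, against 3.31, 3.32 and 2.68 TPM in chloride replicates 1 to 3. Both propionate values lay well above all 3 chloride values. The means were 6.73 ± 0.668 TPM with propionate (SD, n = 2) and 3.10 ± 0.367 TPM with chloride (SD, n = 3), a log2 change of 0.92 ± 0.14 (SE) with an adjusted p of 0.0216 in limma. The 95% interval of the log2 change ran from 0.59 to 1.24. The call was lost without propionate replicate 2 (adjusted p = 0.114), without propionate replicate 3 (adjusted p = 0.113) and without chloride replicate 1 (adjusted p = 0.0579); the log2 change stayed between 0.83 and 1.00 over the 5 fits that each left out 1 library. It was also lost when only annotated transcripts were counted (adjusted p = 0.278) or when genes of any level were tested (adjusted p = 0.169).

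Part of the Loxl2 signal came from sequence that is not unique. The annotated pseudogene Gm21451 (GRCm38 chromosome 14, 69390854 to 69480287, plus strand), upstream of Loxl2, is 100% identical to bases 62 to 2409 of the 5316-base Loxl2 transcript, that is to most of exon 1 and all of exons 2 to 12. Exons 13 and 14 are outside this identity, and exon 13 is shown as the coding stretch by which the spliced Loxl2 message can be told from its copy (GRCm38 chr14:69692314-69692425, plus strand, from GENCODE M21):
Loxl2 exon 13: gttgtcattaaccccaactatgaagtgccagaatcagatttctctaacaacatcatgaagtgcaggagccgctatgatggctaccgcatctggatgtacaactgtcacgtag

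The authors' assembly held a transcript that joins exons of the copy to the last 6 exons of Loxl2, and reads were split among it, Loxl2 and Gm21451 in different ways in different libraries. The joined transcript was at 4.66 and 0 TPM with propionate, against 2.16, 1.82 and 1.94 TPM with chloride. The annotated Loxl2 transcript was at 2.55 and 6.26 TPM with propionate, against 1.15, 1.5 and 0.745 TPM with chloride. Gm21451 itself was at 0.00515 and 4.69 TPM with propionate and listed at 0 in all 3 chloride libraries. Propionate replicate 3 thus stood apart from the other 4 libraries in where the reads were placed, and the level of Loxl2 as a gene is less certain there than elsewhere. With Gm21451 added to Loxl2, the sums were 7.21 and 10.95 TPM with propionate, against 3.31, 3.32 and 2.68 TPM with chloride, and the log2 change was 1.28 (adjusted p = 0.0146 in limma).

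Exons outside the copy gave the same direction. The last exon, exon 14, which is 2795 bases long and mostly 3′ untranslated, had a coverage on the TPM scale of 5.86 and 6.34 with propionate, against 2.71, 2.53 and 2.45 with chloride. Put in place of the gene value, it gave a log2 change of 1.00 ± 0.13 (SE) and an adjusted p of 0.0125 in limma; this measure was chosen after the data were seen. Exon 13 stood at 10.2 and 12.4 with propionate, against 4.89, 2.20 and 2.77 with chloride. The ratio of the propionate mean to the chloride mean was 3.43 for exon 13 and 2.38 for exon 14. Over all 14 exons the groups overlapped in exon 9 alone, and this ratio ran from 1.76 to 3.77 with a median of 2.58. The values of exons 1 to 12, which share sequence with the copy, depend on where shared reads were placed. A gene on the other strand, Gm27177, shares 301 exon bases with Loxl2; it was at 0.763 and 0.770 TPM with propionate, against 0.403, 0.548 and 0.434 TPM with chloride. Counting used no strand option, so reads of the 2 genes in those bases cannot be told apart.

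**Figure D2:**
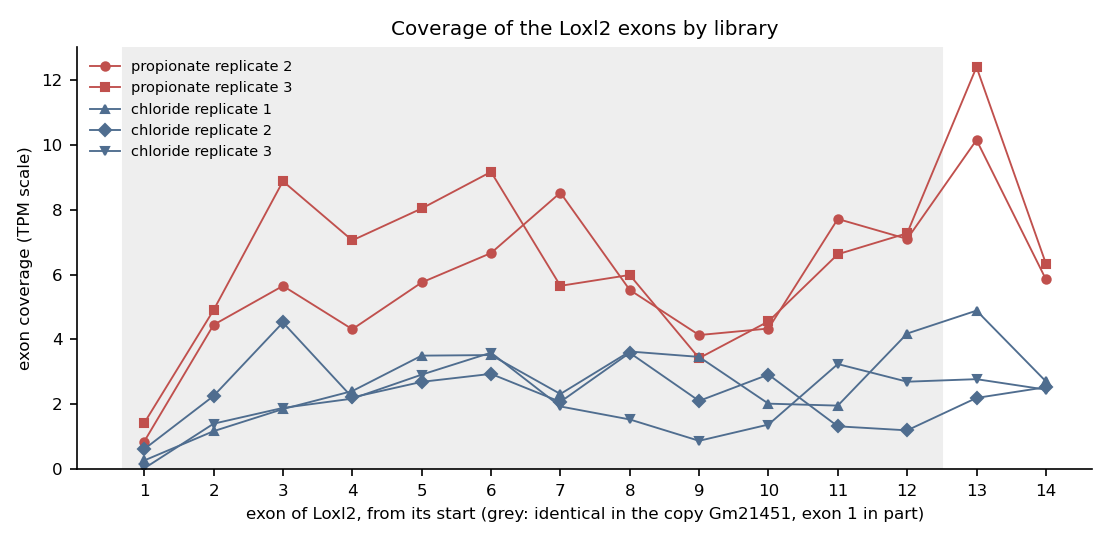
Coverage of each of the 14 exons of Loxl2 on the TPM scale (vertical axis) in exon order (horizontal axis), 1 line per library, propionate in red and chloride in blue; the grey field marks sequence that is identical in Gm21451. The propionate lines lie above the chloride lines in every exon but exon 9, in the unique exons 13 and 14 too.

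Loxl4, a close relative of Loxl2 with the same scavenger receptor repeats, was the least abundant of the detected enzymes. Loxl4 (ENSMUSG00000025185, GRCm38 chromosome 19, 42593982 to 42612813, minus strand) was at 4.11 and 3.71 TPM with propionate, against 2.42, 1.85 and 1.64 TPM with chloride. Both propionate values were above all chloride values, but the difference did not pass the threshold: its log2 change was 0.73 ± 0.17 (SE), with a 95% interval of 0.35 to 1.12 and an adjusted p of 0.0728 in limma. It passed when TPM was rescaled to protein-coding genes (adjusted p = 0.0292). By exon, the groups did not overlap in 13 of the 15 exons of its annotated transcript ENSMUST00000026190, with the propionate libraries higher in each of these 13.

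Loxl3, known for its role in the collagen of cartilage and spine, was the main lysyl oxidase of these cells in both groups. Loxl3 (ENSMUSG00000000693, GRCm38 chromosome 6, 83034173 to 83052562, plus strand) was at 23.9 and 26.9 TPM with propionate, against 23.2, 24.6 and 27.0 TPM with chloride. The groups overlapped almost fully, and the log2 change was 0.023 with a 95% interval of -0.23 to 0.27 (adjusted p = 0.945 in limma). With annotated transcripts only, which leaves out the assembled form, the log2 change was 0.63 ± 0.42 (SE) and did not pass (adjusted p = 0.589). It shares 535 exon bases with Htra2 on the other strand, which was at 14.7 and 19.4 TPM with propionate, against 15.9, 17.5 and 16.5 TPM with chloride.

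The share of each gene in the family's summed TPM was set beside that of the others. Loxl2 held 20.5% and 17.0% of the family's TPM with propionate, against 11.4%, 11.2% and 8.55% with chloride. Loxl4 held 11.7% and 10.1% with propionate, against 8.34%, 6.20% and 5.23% with chloride. Loxl3 held 67.8% and 72.9% with propionate, against 80.2%, 82.6% and 86.2% with chloride. None of the 3 shares overlapped between the groups, though with 2 against 3 libraries no share could pass an exact test, and the family sum was 35.2 and 36.8 TPM with propionate, against 29.0, 29.8 and 31.3 TPM with chloride. Lox (ENSMUSG00000024529) and Loxl1 (ENSMUSG00000032334), the family members best known for crosslinking fibrillar collagen and elastin, added nothing to these sums.

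Loxl3 was also spliced in more than 1 way. An assembled transcript carries a pair of exons that the coding transcript ENSMUST00000000707 lacks; the annotation has them in a transcript without a coding sequence, where the second one is longer. Both have lengths that are multiples of 3, and they are shown because they make up the stretch by which the forms of Loxl3 differ (GRCm38 chr6:83044115-83044171 and chr6:83044747-83044806, plus strand, from GENCODE M21):
Loxl3 first inserted exon: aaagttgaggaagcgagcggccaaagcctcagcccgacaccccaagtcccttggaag
Loxl3 second inserted exon: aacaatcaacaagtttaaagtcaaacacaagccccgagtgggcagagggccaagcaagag
Mean coverage of the pair was 53.3% and 58.6% of that of the flanking exons with propionate, against 67.8%, 71.5% and 63.7% with chloride. Both propionate values were below all 3 chloride values, with means of 55.9 ± 3.80% and 67.7 ± 3.93% (SD, n = 2 and n = 3). Against the upstream neighbour alone they were 50.8% and 64.9% with propionate, against 79.4%, 73.9% and 65.3% with chloride. Either neighbour alone gave a p of 0.2 in an exact permutation test. Transcript TPM overlapped: the assembled form held 35.3% and 56.9% of Loxl3 TPM with propionate, against 81.6%, 51.8% and 59.6% with chloride.

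Plod2, or lysyl hydroxylase 2, is the enzyme that hydroxylates lysines in the telopeptides of collagen, the sites from which hydroxylysine crosslinks start. It was the most abundant enzyme of the group. Plod2 (ENSMUSG00000032374, GRCm38 chromosome 9, 92542223 to 92608428, plus strand) was at 211 and 239.5 TPM with propionate, against 161, 153 and 148 TPM with chloride. Both propionate libraries were above every chloride library, and the chloride values lay close together. The means were 225 ± 19.8 TPM with propionate (SD, n = 2) and 154 ± 6.39 TPM with chloride (SD, n = 3), a log2 change of 0.54 ± 0.091 (SE) with a 95% interval of 0.34 to 0.75 and an adjusted p of 0.0290 in limma.

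The Plod2 call was lost without propionate replicate 3 (adjusted p = 0.113) and without chloride replicate 1, 2 or 3 (adjusted p = 0.0783, 0.0914 and 0.0792), with log2 changes of 0.46 to 0.63 over the 5 fits that left out 1 library. It was also lost when only annotated transcripts were counted or genes of any level tested, both with an adjusted p of 0.155, although the log2 change was then still 0.54. The difference was spread along the whole message: in each of the 20 exons of the transcript ENSMUST00000160359 both propionate libraries were above all chloride libraries, and the ratio of means ran from 1.35 to 1.7. Gm38391, which shares 346 exon bases with Plod2 on the other strand, was at 1.55 and 1.92 TPM with propionate, against 1.07, 1.39 and 0.623 TPM with chloride, far below Plod2.

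**Figure D3:**
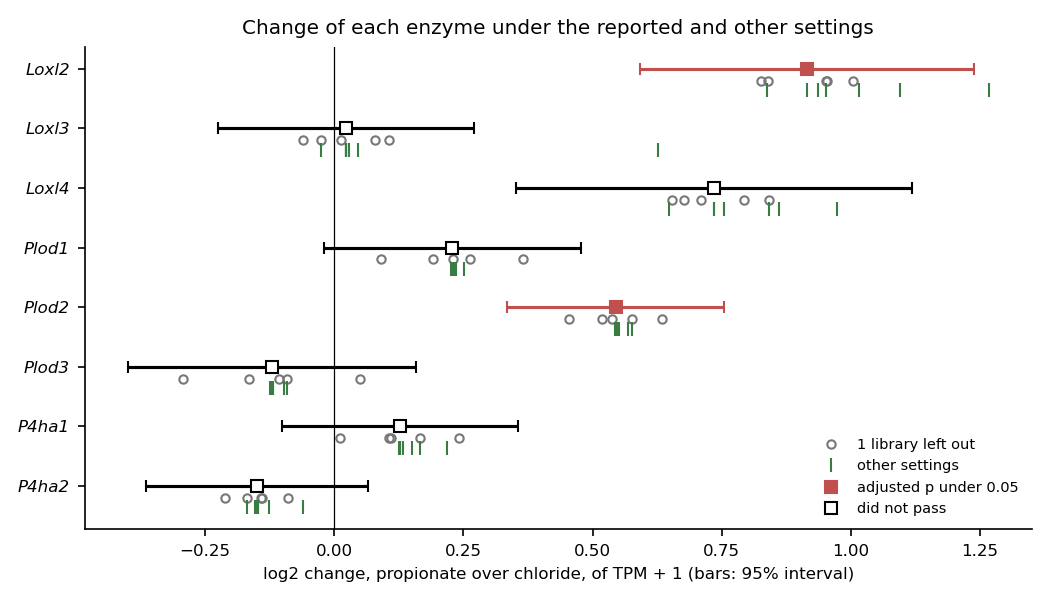
Log2 change, propionate over chloride, of each detected enzyme (horizontal axis; squares with 95% intervals, filled red where the adjusted p was under 0.05), with the values after leaving out 1 library (circles) and under other settings (green ticks). Loxl2 and Plod2 lie above 0 under every setting drawn, while Loxl3 and Plod3 have values on both sides of 0.

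Plod2 makes a long and a short form that differ by 1 coding exon, and the long form is the one linked to telopeptide hydroxylation. The exon is 63 bases long, so its inclusion keeps the reading frame, and it is shown because its use differed between the libraries (GRCm38 chr9:92601985-92602047, plus strand, from GENCODE M21):
Plod2 cassette exon: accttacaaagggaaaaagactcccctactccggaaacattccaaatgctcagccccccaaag
Its read coverage, not scaled to TPM, was 1002 and 1038 with propionate, against 658, 601 and 557 with chloride. The exon before it had 1256 and 1394 with propionate, against 966, 899 and 831 with chloride; the exon after it had 1241 and 1383 with propionate, against 949.9, 818 and 797 with chloride. Relative to the mean of these 2 neighbours, the cassette was covered at 80.3% and 74.7% with propionate, against 68.7%, 70.0% and 68.4% with chloride.

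The long form was thus the larger share in every library, and both propionate libraries were above the chloride ones, with means of 77.5 ± 3.90% and 69.0 ± 0.863% (SD, n = 2 and n = 3). The difference of 8.47 percentage points was 9.79 against the upstream neighbour alone and 7.04 against the downstream one alone, and 5.71 without propionate replicate 2. Transcript TPM did not follow this split: the short form, ENSMUST00000070522, was listed at 4.21 and 55.7 TPM with propionate, against 4.57, 8.0 and 43.0 TPM with chloride. Of 18 transcripts of the 10 genes that reached a mean of 1 TPM, 0 passed limma at an adjusted p under 0.05 and 2 had an unadjusted p under 0.05, beside 0.0404% of 32170 transcripts that passed.

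Plod1, the lysyl hydroxylase of the collagen helix, was at 60.3 and 73.1 TPM with propionate, against 56.7, 59.4 and 53.7 TPM with chloride. The lowest propionate library was just above the highest chloride library, and the log2 change was 0.23 with a 95% interval of -0.020 to 0.48 (adjusted p = 0.338 in limma; ENSMUSG00000019055, GRCm38 chromosome 4, 147909753 to 147936767, minus strand). Plod3, which also adds glucose to the sugar on hydroxylysine, was at 27.5 and 35.2 TPM with propionate, against 35.4, 34.6 and 31.9 TPM with chloride. Propionate replicate 2 lay below the chloride range and replicate 3 within it, with a log2 change of -0.12 and a 95% interval of -0.40 to 0.16 (adjusted p = 0.677; ENSMUSG00000004846, GRCm38 chromosome 5, 136987019 to 136996648, plus strand). Plod3 shares 529 exon bases with Znhit1 on the other strand, which was at 11.2 and 12.4 TPM with propionate, against 14.2, 14.2 and 12.8 TPM with chloride.

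Among the lysyl hydroxylases Plod2 held the largest share in all 5 libraries. Plod2 held 70.6% and 68.9% of the summed TPM of the 3 genes with propionate, against 63.6%, 61.9% and 63.4% with chloride. Plod3 held 9.20% and 10.1% with propionate, against 14.0%, 14.0% and 13.6% with chloride. Plod1 held 20.2% and 21.0% with propionate, against 22.4%, 24.1% and 22.9% with chloride. The groups overlapped in none of these shares, which again could not pass an exact test, and the 3 genes summed to 299 and 348 TPM with propionate, against 253, 247 and 234 TPM with chloride.

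P4ha1 and P4ha2 each form a tetramer with the protein disulfide isomerase P4hb. P4ha1 (ENSMUSG00000019916, GRCm38 chromosome 10, 59323296 to 59373304, plus strand) was at 111 and 129.9 TPM with propionate, against 116, 107 and 106 TPM with chloride. Propionate replicate 2 lay within the chloride range and replicate 3 above it, with a log2 change of 0.13 and a 95% interval of -0.10 to 0.36 (adjusted p = 0.572 in limma). P4ha2 (ENSMUSG00000018906, GRCm38 chromosome 11, 54100095 to 54131665, plus strand) was at 26.5 and 28.9 TPM with propionate, against 30.0, 31.2 and 31.2 TPM with chloride. Both propionate values were slightly below the chloride values, and the log2 change of -0.15, with a 95% interval of -0.37 to 0.066, did not pass (adjusted p = 0.467).

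P4ha1 held 80.7% and 81.8% of the TPM of the pair with propionate, against 79.4%, 77.4% and 77.4% with chloride, so it was the main subunit in all 5 libraries. P4hb was at 334 and 389 TPM with propionate, against 394, 378 and 385 TPM with chloride. That was 2.43 and 2.45 TPM of P4hb for each TPM of P4ha1 and P4ha2 with propionate, against 2.71, 2.73 and 2.80 with chloride. The ratio was lower in both propionate libraries than in the chloride libraries.

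In the annotated coding transcripts compared here, each subunit uses 1 or the other of a pair of coding exons, called exclusive below. The swap changes a stretch of the protein but not its frame. An assembled P4ha1 transcript has 16 exons, against 15 in ENSMUST00000009789. It is 6746 bases long from position 59323307, against 6686 bases from position 59323296, and both end at the same base. It held 16.8% and 8.20% of P4ha1 TPM with propionate, against 29.9%, 5.48% and 16.8% with chloride. Given its later start, its length matches 1 more exon of 71 bases, the length of either P4ha1 exclusive exon, so it may carry both. The positions of its exons were not examined. The coverage split thus does not show that the 2 exons always exclude each other. In P4ha1 the 2 exons are each 71 bases long and have the same base at 42 positions, or 59.2%, which are the capitals below (GRCm38 chr10:59354340-59354410 and chr10:59355350-59355420, plus strand, from GENCODE M21):
P4ha1 first exclusive exon: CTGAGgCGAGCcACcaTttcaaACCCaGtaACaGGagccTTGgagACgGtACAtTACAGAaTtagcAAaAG
P4ha1 second exclusive exon: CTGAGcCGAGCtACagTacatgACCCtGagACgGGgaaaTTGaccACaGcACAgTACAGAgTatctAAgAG
In P4ha2 they are 60 and 66 bases long (GRCm38 chr11:54126238-54126297 and chr11:54126346-54126411, plus strand):
P4ha2 first exclusive exon: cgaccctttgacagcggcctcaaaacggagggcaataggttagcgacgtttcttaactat
P4ha2 second exclusive exon: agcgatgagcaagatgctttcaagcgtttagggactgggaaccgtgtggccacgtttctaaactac
The first P4ha1 exon took 48.1% and 44.9% of the coverage of the pair with propionate, against 43.0%, 46.4% and 43.5% with chloride. The first P4ha2 exon took 66.3% and 73.8% with propionate, against 68.4%, 66.6% and 67.2% with chloride. The groups overlapped for both, so P4ha1 used its 2 exons about equally and P4ha2 its first exon more in either group; without propionate replicate 3 the difference for P4ha2 changed sign, with -1.12 percentage points in place of 2.66.

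The 7 family shares and 4 exon measures were each put to a two-sided exact permutation test over the 5 libraries. With 2 against 3 libraries the smallest p this test can give is 0.1, so none could pass 0.05. That smallest p of 0.1 (0.157 after adjustment over the 11 tests) came out for the shares of Plod1, Plod2, Plod3, Loxl2 and Loxl3 and for the Plod2 and Loxl3 exons. Shares within a family add up to a fixed total, so they are not separate results. The share of Plod1, for example, was lower with propionate although its TPM was higher. The shares of Loxl4 and P4ha1 had an exact p of 0.2, the first exon of P4ha1 had 0.3 and that of P4ha2 had 0.6.

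**Figure D4:**
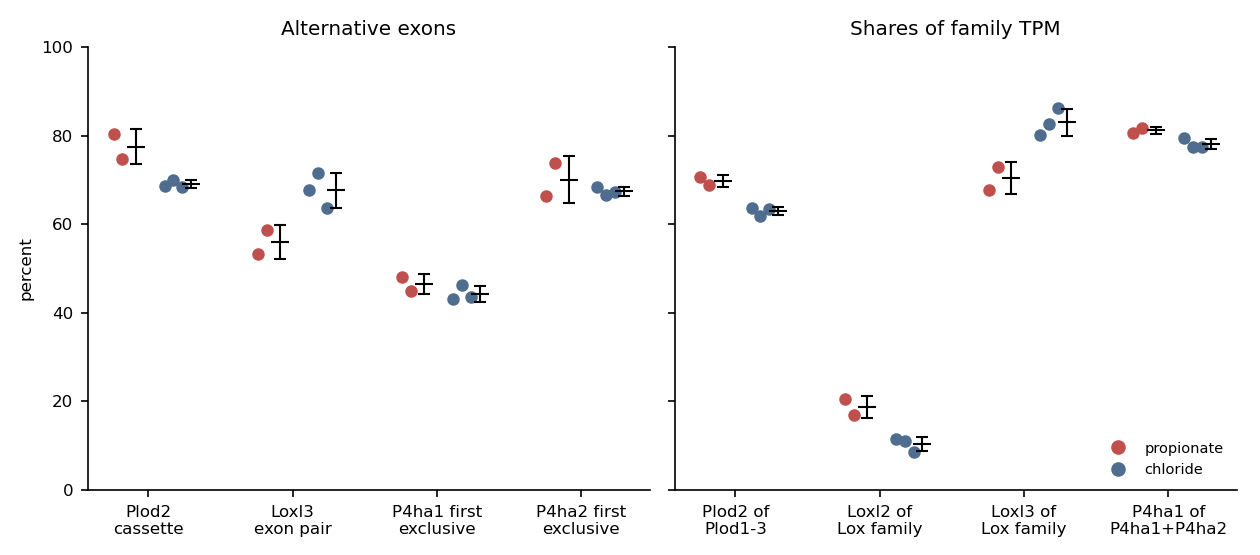
Percentages (vertical axis) by library for the 4 alternative exons (left panel; exon coverage as a percent of the neighbouring exons, or of both exclusive exons) and for 4 shares of family TPM (right panel), propionate in red left of chloride in blue, with mean ± SD in black. Propionate and chloride points do not overlap for the Plod2 cassette, the Loxl3 exon pair and the 4 family shares, and they overlap for the P4ha1 and P4ha2 exons.

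Of the chains these enzymes act on, Col1a1 rose with propionate and the main chain, Col2a1, did not pass the test. Col1a1, the alpha-1 chain of collagen I, was at 6.40 and 9.14 TPM with propionate, against 3.28, 3.39 and 2.53 TPM with chloride (log2 change 1.10 ± 0.18 SE, adjusted p = 0.0239 in limma). The call was lost without propionate replicate 3 (adjusted p = 0.162) and without chloride replicate 1 (adjusted p = 0.0693). Its partner Col1a2 was at most 0.0190 TPM in any library. Col2a1, the collagen of cartilage, was at 648 and 844 TPM with propionate, against 671, 664 and 607 TPM with chloride (log2 change 0.19, adjusted p = 0.449), so the 2 groups overlapped. Of the 16 chains listed, 8 were tested, with a median log2 change of 0.20. Of these, 1 was higher and 0 lower, beside 1.31% and 0.504% of all tested genes. At an unadjusted p under 0.05, 2 of the 8 were higher and 3 lower, beside 1100 and 1236 of all 13876 tested genes. Closest to the threshold downwards was Col11a2, at 71.7 and 89.5 TPM with propionate, against 114, 119 and 114 TPM with chloride. Its log2 change was -0.52 (adjusted p = 0.0565 in limma).

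Among 16 genes for procollagen processing and fibril assembly, 9 were tested. Of these, 1 was higher and 0 lower, beside 1.31% and 0.504% of all tested genes. At an unadjusted p under 0.05 in limma, 3 of the 9 were higher and 0 lower, beside 1100 and 1236 of all 13876 tested genes. Postn encodes periostin, a matrix protein that binds the procollagen protease Bmp1 and fibronectin. It was at 11.8 and 11.7 TPM with propionate, against 6.13, 6.49 and 6.74 TPM with chloride (log2 change 0.77 ± 0.11 SE, adjusted p = 0.0143 in limma). That call was lost without propionate replicate 2 (adjusted p = 0.0754), propionate replicate 3 (0.113) or chloride replicate 1 (0.0533). Bmp1 itself, which also cleaves the propeptide of Lox, was at 10.7 and 12.3 TPM with propionate, against 8.97, 9.84 and 9.04 TPM with chloride, and did not pass (adjusted p = 0.258).

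Among the partners of the hydroxylases in the endoplasmic reticulum no gene passed the test. All 16 of this list were tested. Of these, 6 had log2 changes above 0 and 10 below (median -0.061), beside 6177 and 7699 of all 13876 tested genes. At an unadjusted p under 0.05, 0 were higher and 1 lower, beside 1100 and 1236 of all tested genes. The smallest p belonged to P3h1, a prolyl 3-hydroxylase, at 32.4 and 39.0 TPM with propionate, against 44.4, 47.3 and 41.7 TPM with chloride (adjusted p = 0.210 in limma). P4ha3, the third catalytic subunit of prolyl 4-hydroxylase, was next, at 6.21 and 6.99 TPM with propionate, against 8.98, 7.0 and 8.45 TPM with chloride (adjusted p = 0.371). The Plod2 partner Fkbp10, a chaperone needed for telopeptide hydroxylation, was at 62.1 and 80.4 TPM with propionate, against 72.2, 69.4 and 66.8 TPM with chloride, so the groups overlapped.

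Among the other 2-oxoglutarate hydroxylases listed (9 genes) and the listed genes of copper and ascorbate supply (8 genes), no gene passed. Further members of this enzyme family and genes of iron or 2-oxoglutarate supply were not listed. Of 8 tested hydroxylases outside the collagen enzymes, 0 passed and 7 had log2 changes below 0 (median -0.11), 1 of them at an unadjusted p under 0.05. That was Egln2, an oxygen sensor of the HIF pathway, which was at 16 and 21.4 TPM with propionate, against 22.9, 25.7 and 23.6 TPM with chloride (adjusted p = 0.223 in limma). Jmjd4, a hydroxylase of a translation release factor in human cells, was at 4.08 and 4.69 TPM with propionate, against 5.34, 5.38 and 4.92 TPM with chloride (adjusted p = 0.444). All 6 tested genes of copper and ascorbate supply had log2 changes above 0 (median 0.16) and 0 passed, 2 with an unadjusted p under 0.05. Over all 13876 tested genes, 6177 had log2 changes above 0 and 7699 below. At an unadjusted p under 0.05, 1100 of these were higher and 1236 lower. Atox1, the chaperone that hands copper to the secretory pathway, was at 263 and 272 TPM with propionate, against 209, 222 and 230.1 TPM with chloride (adjusted p = 0.141). The copper transporter Slc31a2 was at 87.5 and 97.8 TPM with propionate, against 76.8, 74.9 and 75.8 TPM with chloride (adjusted p = 0.164).

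Of 24 tested hypoxia targets outside the 10 enzymes, 0 passed, 14 had log2 changes below 0 and the median was -0.086. Of all 13876 tested genes, 7699 were below 0, with a median of -0.026. At an unadjusted p under 0.05, 0 of the 24 were higher and 4 lower, beside 1100 and 1236 of all tested genes. The groups did not overlap for 9 of the 24 downwards and 2 upwards, beside 19.7% and 14.8% of all tested genes. Whether hypoxia signalling had a part in any change was not tested. The glycolytic enzyme Aldoa was at 565 and 605 TPM with propionate, against 833, 831 and 692 TPM with chloride (log2 change -0.42, adjusted p = 0.0897 in limma). The angiogenic factor Vegfa was at 15.7 and 20.2 TPM with propionate, against 24.1, 24.2 and 25.6 TPM with chloride (log2 change -0.44, adjusted p = 0.115).

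Of 16 tested TGF-beta response genes, 0 were higher and 1 was lower, beside 1.31% and 0.504% of all tested genes. Log2 changes were above 0 for 12 of the 16 (median 0.19), beside 44.5% of all tested genes. The 1 that was lower was Tgfbi, a secreted matrix protein named for its induction by TGF-beta. It was at 5.99 and 6.98 TPM with propionate, against 14.7, 12.6 and 11.2 TPM with chloride (log2 change -0.88 ± 0.14 SE, adjusted p = 0.0216 in limma). Its call was lost without propionate replicate 2 (adjusted p = 0.1095), propionate replicate 3 (0.113) or chloride replicate 1 (0.0651). Among the glial and glioma markers 2 of 10 tested were higher and 0 lower, beside 1.31% and 0.504% of all tested genes. At an unadjusted p under 0.05 in limma, 4 of the 10 were higher and 1 lower, beside 1100 and 1236 of all 13876 tested genes. Pdgfra, a growth factor receptor of glial progenitors, was at 22.6 and 22.4 TPM with propionate, against 11.6, 11.1 and 12.4 TPM with chloride (adjusted p = 0.00714), and the radial glia gene Fabp7 at 21.5 and 26.0 TPM with propionate, against 13.0, 12.9 and 14.4 TPM with chloride (adjusted p = 0.0195). Without propionate replicate 3 the adjusted p was 0.0858 for Pdgfra and 0.122 for Fabp7, and Fabp7 also missed the threshold without chloride replicate 1 (0.0721). Of the 5 tested genes among the markers of other cells, 0 passed and 4 had an unadjusted p under 0.05, beside 16.8% of all tested genes. Of these 4, 1 immune marker was higher, and 2 fibroblast and pericyte markers were higher and 1 lower. The macrophage gene Cd68 came closest, at 10.1 and 12.1 TPM with propionate, against 7.59, 7.03 and 6.22 TPM with chloride (adjusted p = 0.0593), and Pdgfrb of pericytes was at 2.29 and 1.91 TPM with propionate, against 1.01, 0.652 and 0.626 TPM with chloride (adjusted p = 0.0864). Col3a1, a collagen chain of fibroblasts and itself a substrate of these enzymes, was at 98.8 and 118 TPM with propionate, against 142, 143 and 130.1 TPM with chloride (adjusted p = 0.141). Both of its propionate values were below all chloride values, while the groups overlapped for the monocyte gene Cd14, at 2.13 and 2.36 TPM with propionate, against 2.26, 1.89 and 2.1 TPM with chloride (adjusted p = 0.866).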

How the data were processed

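Libraries were prepared from total RNA (RNeasy Mini plus) with the TruSeq Stranded Total RNA kit, according to the labels. bcl2fastq, fastp, HISAT2 and StringTie, with the build mm10, are the tools listed in the submitters' processing notes. Per the file headers, the levels were estimated by StringTie 2.1.1 against a merged set of annotated and assembled transcripts, and the strand of reads was not set. The other attributes the authors deposited are thus TPM, FPKM and coverage, and no read counts were used. Transcript IDs were joined to GENCODE M21 (GRCm38). Gene TPM was the sum over annotated transcripts and same-strand assembled transcripts of the locus that overlap its exons. The fit by limma 3.58.1 (R 4.3.3) took genes with a mean of at least 1 TPM (trended variance, log2(TPM + 1), adjusted p under 0.05); the script was first tested on simulated data. Exon coverage was summed over transcripts with exactly that exon. For the Loxl2 exon values and the exon-by-exon comparisons it was divided by each library's coverage per TPM. The coverage values of the Plod2 cassette and its neighbours are given undivided. Transcripts were compared with blastn 2.17.0. Replicate numbers 2 and 3 occur in both groups; they were not used as pairs. The enzymes and gene lists were chosen with earlier results of these data known. In each list, up to 4 genes past the threshold are named, or else the 2 with the smallest p. Col1a2, Col2a1, Col11a2, Bmp1, Fkbp10 and P4hb were added after their values were seen.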

Additional observations from a re-analysis of the deposited data

Results flagged for a closer look

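Gm21451, the annotated pseudogene that shares exons 2 to 12 of Loxl2, drew attention because nearly all TPM assigned to it was in 1 library. It was at 4.69 TPM in propionate replicate 3 and 0.00515 TPM in propionate replicate 2, and listed at 0 in the 3 chloride libraries. In the same propionate replicate 3 the assembled transcript that joins exons of the copy to Loxl2 was listed at 0. It was at 4.66 TPM in propionate replicate 2 and at 1.82 to 2.16 TPM in the chloride libraries. Its exons in the copy were covered in those libraries. Exon 5, for example, was at 5.44 on the TPM scale in propionate replicate 2. The same exon was at 3.26, 2.55 and 2.21 in chloride replicates 1 to 3. A listed 0 for Gm21451 thus does not show that the copy had no reads. The part of read placement in these values was not tested. The last exon of Loxl2, which the copy lacks, was at 5.86 and 6.34 on the TPM scale in the propionate libraries, against 2.45 to 2.71 in the chloride libraries.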

How the results depend on the processing

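The number of genes called higher and lower was 182 and 70. It was 371 and 157 with median-of-ratios scaling, 588 and 407 with TPM over protein-coding genes, 2 and 1 with no minimum, and 5 and 6 with annotated transcripts only; genes called lower were 106 with FPKM and 107 with the replicate as a block. Leaving out 1 library gave 8 to 126 higher and 7 to 46 lower. Of the 10 enzymes, 2 were called higher as reported, 3 with TPM over protein-coding genes, 3 with the replicate block, 1 at a minimum mean of 5 TPM, 0 with no minimum, 0 with annotated transcripts only and 0 to 1 with 1 library left out; 0 were called lower under any of these. The 5 calls in the surrounding lists became 8 with FPKM, 13 with median-of-ratios scaling, 18 with TPM over protein-coding genes, 0 with no minimum, 0 with annotated transcripts only and 0 to 5 with 1 library left out. With 1 library left out, the Loxl3 change ran from -0.060 (without propionate replicate 3) to 0.11 and turned to -0.025 without chloride replicate 1; it was also -0.025 with the replicate block and 0.63 with annotated transcripts only, which leaves out an assembled form. The Plod3 change ran from -0.29 to 0.051 (without propionate replicate 2). At the minimum mean of 5 TPM, Loxl2 (mean 4.55 TPM) and Loxl4 (2.75 TPM) were not tested, so the Loxl2 call was not put to the test there. Plod2 passed at that minimum (adjusted p = 0.0236 in limma). Loxl2, Loxl4, Plod1, Plod2 and P4ha1 kept changes above 0 and P4ha2 below 0 under every alternative that tested them. The cause of these differences was not tested.

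The replicate block, which pairs replicates 2 and 3, gave adjusted p-values in limma of 0.00760 for Loxl2, 0.0369 for Plod2 and 0.0330 for Loxl4. Chloride replicate 1 has no partner there, so the log2 changes (0.95, 0.58 and 0.84) were those found without that library. These p-values lean mainly on the variance pooled over genes. Same-numbered libraries deviated from their group means with correlations of -0.22 and -0.20, so the numbers were not taken as pairs. Crossing the numbers was not run. The values of Loxl2 and Loxl4, at under 10 TPM, rest on lower coverage than those of Plod2.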
